A study of Mus musculus with 8 samples.

Results

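A set of 9 genes of the red cell program was followed across the notochord-to-nucleus pulposus transition, out of 43346 genes counted. They comprised 3 embryonic globins (Hbb-y, Hbb-bh1 and Hba-x), 4 adult globins (Hba-a1, Hba-a2, Hbb-bs and Hbb-bt) and 2 erythroid genes, Alas2 and Klf1. The genes were chosen by name, on earlier results of the same litters in which Hbb-y, Hba-x and Hbb-bh1 were among the largest falls from embryonic day 12.5 (E12.5) to postnatal day 0 (P0). Their change between the stages is therefore described below without a test.

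RNA was sequenced from notochord-derived cells (NDCs) of Shh-cre;ROSA:YFP mice, in which Cre expressed from Shh switches on a yellow fluorescent protein (YFP) in Shh-expressing cells and in their descendants. Each stage had 4 litters, and the embryos or pups of a litter (about 6) were pooled into 1 sample, NDP10.2, NPD3, NPD4 and NPD9.2 at E12.5 and NPD26, NPD27, NPD28 and NPD30 at P0. At E12.5 whole notochords were dissected out and put straight into lysis reagent. The P0 nucleus pulposus (NP) cells were shaken out of bisected discs and sorted for YFP, so that stage and isolation method cannot be told apart.

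Red blood cells arise in successive waves. Primitive red cells from the yolk sac enter the circulation while still nucleated, and carry hemoglobin made of zeta-like (Hba-x) and alpha chains with epsilon-like (Hbb-y) and beta-h1 (Hbb-bh1) chains. Within that lineage Hbb-bh1 is used before Hbb-y, and Hba-x before the adult alpha genes. Definitive red cells, made first by the fetal liver, use the adult chains of Hba-a1, Hba-a2, Hbb-bs and Hbb-bt. Klf1 is the transcription factor that activates adult beta-globin and many other erythroid genes, and Alas2 makes the first enzyme of heme synthesis in red cells. The labels name notochordal cells and no blood cell in either stage.

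The beta-like genes lie in 1 cluster on the minus strand of chromosome 7 (build GRCm38), with Hbb-y (ENSMUSG00000052187) at chr7:103851749-103853216, Hbb-bh1 (ENSMUSG00000052217) at chr7:103841637-103843164, Hbb-bs (ENSMUSG00000052305) at chr7:103826534-103828096 and Hbb-bt (ENSMUSG00000073940) at chr7:103812524-103813996. The alpha-like genes lie in another cluster on the plus strand of chromosome 11, with Hba-x (ENSMUSG00000055609) at chr11:32276400-32278116, Hba-a1 (ENSMUSG00000069919) at chr11:32283511-32284465 and Hba-a2 (ENSMUSG00000069917) at chr11:32296489-32297298. In both clusters the embryonic genes come first in the direction of transcription. Alas2 (ENSMUSG00000025270) is at chrX:150547375-150570638 and Klf1 (ENSMUSG00000054191) at chr8:84901928-84905291, both on the plus strand. Alas2 lies inside the annotated span of Apex2 on the opposite strand. Whether reads were counted by strand is not given in the sources used here, so reads of these overlapping genes may not be separable.

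The adult genes of each cluster are near-identical copies, which limits how far their counts can be read apart. The coding sequences of Hba-a1 and Hba-a2 differed at 1 of 429 bases (C381T, Hba-a1 first, counted from the first coding base), and those of Hbb-bs and Hbb-bt at 1 of 444 (C417T, Hbb-bs first). The stretches around these differences, from Gencode transcripts on GRCm38, are shown with the differing base in capitals.
Hba-a1: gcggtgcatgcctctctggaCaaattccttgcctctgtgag
Hba-a2: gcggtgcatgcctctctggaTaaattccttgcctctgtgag
Hbb-bs: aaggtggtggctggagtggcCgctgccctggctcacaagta
Hbb-bt: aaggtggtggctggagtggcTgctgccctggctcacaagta

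Reads were 100 bases long. Of all 100-base windows of the transcript, 63.3% in Hba-a1 and 79.5% in Hba-a2 had an exact copy in the partner gene, and a read from such a window cannot be placed. The shares were 49.7% for Hbb-bs and 54.8% for Hbb-bt. No window of Hbb-y, Hbb-bh1, Hba-x, Alas2 or Klf1 was shared with another of the 9 genes. The embryonic globins are much further from the adult ones. Hbb-y was identical to Hbb-bh1 at 76.4% and to Hbb-bs at 74.3% of coding bases, and Hba-x to Hba-a1 at 62.0%.

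Sequence just before the gene start is shown for an embryonic and an adult beta-like gene, an adult alpha gene and Alas2, from RefSeq promoters on GRCm38.p6, which held 8 of the 9 genes (all but Hbb-bh1). Capitals mark exact matches on either strand to 5 motifs. CCNCNCCC and the shorter CCACCC stand for the box that Klf1 and its relatives bind. AGATAA stands for a site of Gata1 and its relatives. The motif CCAAT and the motif TATAA are general promoter elements.
Hbb-y, chr7:103853217-103853326, minus strand: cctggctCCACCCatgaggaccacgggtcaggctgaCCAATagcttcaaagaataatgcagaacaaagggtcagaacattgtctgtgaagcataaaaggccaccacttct
Hbb-bt, chr7:103813997-103814106, minus strand: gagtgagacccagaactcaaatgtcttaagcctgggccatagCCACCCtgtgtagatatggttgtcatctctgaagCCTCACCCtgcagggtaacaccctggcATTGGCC
Hba-a2, chr11:32296379-32296488, plus strand: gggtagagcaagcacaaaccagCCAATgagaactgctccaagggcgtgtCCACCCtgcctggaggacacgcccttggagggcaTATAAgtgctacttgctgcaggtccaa
Alas2, chrX:150547265-150547374, plus strand: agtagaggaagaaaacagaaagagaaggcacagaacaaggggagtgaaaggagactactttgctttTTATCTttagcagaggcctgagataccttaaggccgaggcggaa

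Over the 250 bases before the start, CCACCC was present in 6 of the 8 genes and in 28.1% of 32851 mouse promoters of the same length. This motif was added after the first search had been seen, and can overlap CCNCNCCC. CCNCNCCC was present in 4 genes and 45.9% of promoters, CCAAT in 6 and 33.8%, TATAA in 6 and 22.8%, and AGATAA in 2 (Hbb-bs and Alas2) and 9.99%. These letter matches are descriptions of the sequence and were not tested for binding. The stretches shown end just before the Gencode start of the gene, whereas the 250 bases are counted from the RefSeq start. Relative to the RefSeq start, the stretch runs from -119 to -10 for Hbb-y, -183 to -74 for Hbb-bt, -113 to -4 for Hba-a2 and -152 to -43 for Alas2. Matches outside it, such as the TATAA of Hbb-bt that begins at -28 and the CCACCC matches of Alas2 between -40 and -25, are counted but not shown. The CC that ends the Hbb-bt stretch begins a CCAAT match at -75 to -71 that is cut off there.

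Genes took 4442775 to 7180221 reads per litter at E12.5 and 6371842 to 8904050 at P0. On the CPM scale (a gene's reads scaled to the normalized size of the library), 3 reads equalled 0.353 to 0.738 CPM. Brachyury (T), the defining notochord transcription factor, was present in every litter, at 242 to 942 CPM at E12.5 and 574 to 2323 CPM at P0. Other notochord genes differed from it. Shh measured 420 to 1348 CPM at E12.5 and 0.157 to 11.8 CPM at P0. Foxa2 measured 4.84 to 17.2 and 1.59 to 9.70 CPM, and Noto stayed at or under 0.433 CPM. The E12.5 litters NDP10.2 and NPD9.2 stood apart from NPD3 and NPD4 in that 16.3% and 17.5% of their reads fell on more than 1 gene and were set aside as ambiguous, against 7.07% to 11.6% in the other 6 litters. Over 15467 genes tested with edgeR's quasi-likelihood test, 27.9% passed an adjusted p of 0.05, and the median log2 fold change was 0.04. Of 7 notochord genes tested, 2 (Krt19 and Cd24a) were higher and 1 (Shh) lower at P0, and T did not pass. Of all genes tested, 16.0% were higher and 12.0% lower.

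The 7 globins made up 2.32%, 1.02%, 1.21% and 4.51% of the counted reads at E12.5 (NDP10.2, NPD3, NPD4 and NPD9.2). At P0 they made up 0.0576%, 0.120%, 0.0324% and 0.0742% (NPD26, NPD27, NPD28 and NPD30). The stages did not overlap. In a pooled sample, fewer red cells and less globin RNA per cell cannot be told apart. Nor can a difference between stages be told apart from the difference between whole dissected tissue and sorted cells.

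**Figure D1:**
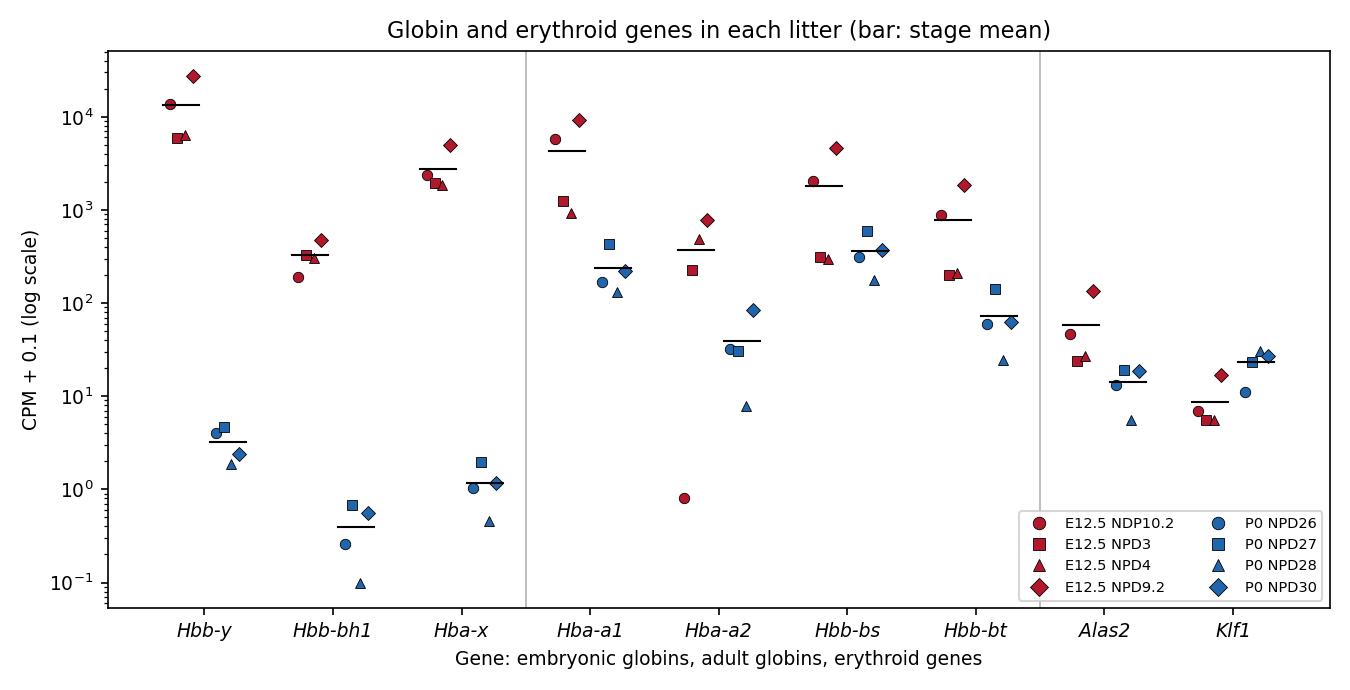
Abundance of the 9 genes in each of the 4 E12.5 litters (red) and 4 P0 litters (blue), as CPM plus 0.1 on a log axis, with bars at the stage means. The embryonic globins at P0 all sit below 5 CPM, whereas the adult globins, Alas2 and Klf1 lie much closer between stages.

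Hbb-y, the epsilon-like chain, was the most abundant of the 9 genes at E12.5, also per kilobase. It measured 13588, 5855, 6396 and 27367 CPM in NDP10.2, NPD3, NPD4 and NPD9.2, and 3.93, 4.61, 1.77 and 2.27 CPM in NPD26, NPD27, NPD28 and NPD30. Every P0 litter was thus far below every E12.5 litter, and the highest E12.5 litter was NPD9.2. The stage means were 13302 ± 10017 and 3.15 ± 1.35 CPM (SD, n = 4 litters each). The log2 fold change was -12.04 (standard error 0.85). The P0 values rested on 15 to 32 reads per litter. Taken over all litters of a stage, the abundance at E12.5 was 3921 times that at P0, with a 95% counting interval of 3178 to 4895 that covers counting error only.

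Hba-x, the zeta-like chain, showed the same pattern at a lower level. It measured 2345, 1936, 1857 and 4975 CPM at E12.5 and 0.944, 1.87, 0.353 and 1.06 CPM at P0, with litters in the same order. NDP10.2, NPD3 and NPD4 lay close together and NPD9.2 stood above them, while the P0 litters rested on 3 to 13 reads. The log2 fold change was -11.35 (standard error 0.69), and the abundance over all reads of a stage was 2591 times higher at E12.5 (95% counting interval 1804 to 3869).

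Hbb-bh1, the beta-h1 chain, was the least abundant embryonic globin in each of the 8 litters, per kilobase too. It measured 190, 328, 306 and 473 CPM at E12.5 and 0.157, 0.577, 0 and 0.455 CPM at P0, where the 4 litters held 8 reads in all. NDP10.2, which had the second highest Hbb-y, had the lowest Hbb-bh1 of its stage. The log2 fold change was -10.05 (standard error 0.62), and the ratio over all reads of a stage was 1175 (95% counting interval 596 to 2723). The depth at P0 limits this ratio, since 3 of the 4 P0 litters lay at or under 3 reads.

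The adult globins were lower at P0 by much smaller amounts. Hba-a1, an adult alpha chain, measured 5763, 1251, 922 and 9190 CPM at E12.5 and 167, 431, 130 and 218 CPM at P0. Its stages did not overlap, and NDP10.2 and NPD9.2 were several times above NPD3 and NPD4. The log2 fold change was -4.18 (standard error 0.80).

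Hbb-bt, an adult beta chain, measured 875, 201, 208 and 1860 CPM at E12.5 and 59.9, 141, 24.6 and 62.3 CPM at P0. The stages again did not overlap, and the log2 fold change was -3.45 (standard error 0.82). Hbb-bs, the other adult beta chain, measured 2040, 310, 294 and 4582 CPM at E12.5 and 313, 589, 175 and 372 CPM at P0. NPD3 and NPD4 lay within the P0 range, and the log2 fold change of -2.32 (standard error 0.85) rested on the other two E12.5 litters. With NDP10.2 and NPD9.2 left out it turned to 0.22.

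Hba-a2, the other adult alpha gene, measured 0.708, 229, 484 and 787 CPM at E12.5 and 32.4, 30.4, 7.77 and 84.1 CPM at P0. The lowest litter of all was NDP10.2, with 3 reads, although 24428 reads of the same litter were counted on Hba-a1. The stages overlapped because of that litter, and the log2 fold change was -3.28 (standard error 1.27).

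Of the erythroid genes, Alas2 followed the adult globins and Klf1 did not. Alas2 measured 46.9, 23.6, 27.2 and 135 CPM at E12.5 and 13.1, 19.03, 5.41 and 18.3 CPM at P0. All P0 litters were below all E12.5 litters, and the log2 fold change was -2.05 (standard error 0.60), or -0.90 without NDP10.2 and NPD9.2. Klf1 measured 6.84, 5.46, 5.44 and 16.7 CPM at E12.5 and 11.0, 23.2, 30.8 and 26.8 CPM at P0. Its mean was higher at P0, and the log2 fold change was 1.43 (standard error 0.45), and the stages overlapped because NPD9.2 lay above NPD26.

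In all, 6 of the 9 genes (Hbb-y, Hbb-bh1, Hba-x, Hba-a1, Hbb-bt and Alas2) had every P0 litter below every E12.5 litter, a pattern found in 14.4% of all genes tested. None had every P0 litter above every E12.5 litter, which 15.5% of genes tested did. Since the genes were chosen on this contrast, the counts describe them and no more. Leaving out NDP10.2 and NPD9.2 brought the log2 fold change of Hba-a1 to -2.24 and of Hbb-bt to -1.55, and left those of Hbb-y at -10.96 and Hba-a2 at -3.23.

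Abundance per kilobase of exon allows for gene length but not for the reads of the adult copies that cannot be placed. On that scale, mean abundance at E12.5 ran from Hbb-y (21014 ± 15825 CPM per kb, SD, n = 4) through Hba-a1 (5272 ± 4862), Hba-x (2962 ± 1578), Hbb-bs (2352 ± 2635), Hbb-bt (1118 ± 1113), Hba-a2 (562 ± 507) and Hbb-bh1 (529 ± 189) to Alas2 (24.2 ± 21.7) and Klf1 (5.63 ± 3.56). Every neighbouring pair in that order overlapped between litters except Hbb-bh1 and Alas2, although Hbb-y was the highest gene within each litter. At P0 the order was Hbb-bs (472 ± 224), Hba-a1 (291 ± 166), Hbb-bt (102 ± 69.7), Hba-a2 (58.0 ± 48.4), Klf1 (15.02 ± 5.60), Alas2 (5.81 ± 2.62), Hbb-y (4.97 ± 2.13), Hba-x (1.13 ± 0.669) and Hbb-bh1 (0.485 ± 0.433). Of these neighbours, Hbb-y and Hba-x were the pair that did not overlap between litters. All 4 adult globins were above Klf1 and Alas2 in mean level at P0, and the embryonic globins formed the bottom of the list. The order within the globins depended on the shared reads. Per 1000 unshared windows, Hbb-bs (5392 ± 6040 CPM) was above Hba-x (3320 ± 1768) at E12.5, and Hba-a2 (3233 ± 2914) above Hbb-bt (2880 ± 2867). At P0, Hba-a2 (333 ± 278) was again above Hbb-bt (263 ± 180).

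The composition of the globin RNA separated the stages completely. On the per-kilobase scale, embryonic genes (Hbb-y with Hbb-bh1) supplied 84.8%, 93.4%, 94.0% and 83.6% of beta-like globin in NDP10.2, NPD3, NPD4 and NPD9.2, and 1.29%, 0.844%, 1.05% and 0.751% in NPD26, NPD27, NPD28 and NPD30. The means were 89.0% ± 5.50 and 0.985% ± 0.241 (SD, n = 4 litters each). Beta-like globin at E12.5 was thus mostly embryonic in every litter, and almost wholly adult at P0.

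The alpha-like side was mixed at E12.5. Hba-x supplied 26.1%, 52.3%, 51.6% and 29.8% of alpha-like globin at E12.5 and 0.394%, 0.346%, 0.218% and 0.285% at P0, with means of 39.9% ± 13.9 and 0.311% ± 0.0762. Within each E12.5 litter the embryonic share was lower for alpha-like than for beta-like globin. The size of these shares depends on how the reads shared by the adult copies are treated. Such reads cannot be placed, which lowers the adult counts and raises the embryonic share per kilobase. When each gene's reads were divided by the number of its windows not shared with another, the embryonic share was 80.3% of beta-like and 17.9% of alpha-like globin at E12.5, and 0.502% and 0.0987% at P0. Hba-x then supplied 11.3%, 25.5%, 22.4% and 12.4% of alpha-like globin in NDP10.2, NPD3, NPD4 and NPD9.2. Adult genes thus supplied most of it in every E12.5 litter.

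**Figure D2:**
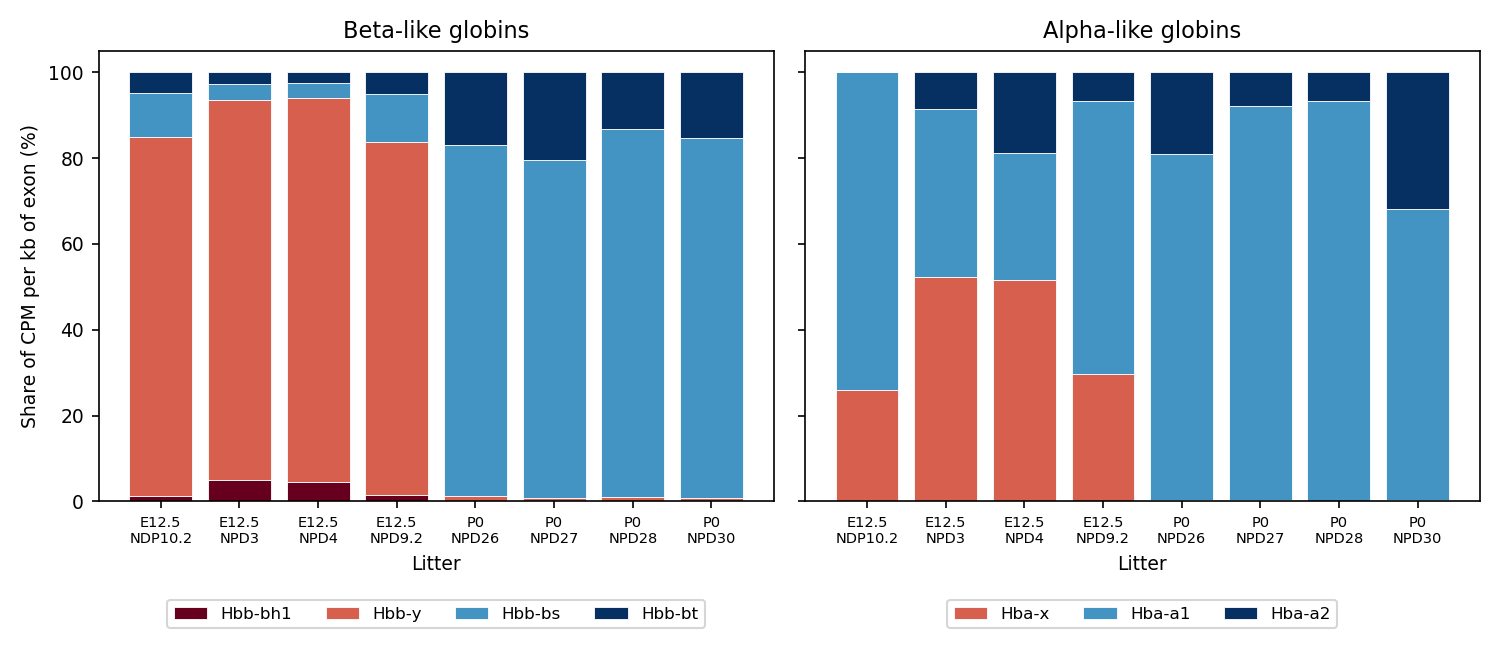
Share of CPM per kb of exon that each gene supplied to the beta-like (left) and alpha-like (right) globins in each litter, in percent, with embryonic genes in red shades and adult genes in blue shades. Embryonic genes supply 83.6% to 94.0% of beta-like globin at E12.5 and at most 1.29% at P0.

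The E12.5 litters differed among themselves in composition. NDP10.2 and NPD9.2 had the higher adult share on both sides, and Hbb-bh1 was 1.43% and 1.75% of embryonic beta-like globin in them, against 5.47% in NPD3 and 4.70% in NPD4. Hba-x per Hbb-y, each per kilobase, was also lower in NDP10.2 (0.117) and NPD9.2 (0.123) than in NPD3 (0.223) and NPD4 (0.196). The ratio compares the embryonic alpha-like with the main embryonic beta-like gene, and involves no adult copy. In the same 4 litters, NDP10.2, NPD3, NPD4 and NPD9.2, the summed abundance of 7 hepatocyte genes was 617, 46.8, 226 and 743 CPM, against 1.36 to 4.33 CPM at P0. None of the 7 was at 0 in all litters of a stage. Afp and Alb, made by fetal liver, were its main parts, with Afp at 320, 26.3, 157 and 368 CPM and Alb at 188, 10.3, 33.0 and 269 CPM in that order. Of the 5 hepatocyte genes tested all 5 were lower at P0 (edgeR, adjusted p under 0.05), as were 12.0% of all genes tested. The part of liver RNA in the adult globin values was not tested.

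The balance of chains differed between the stages as well. Adult alpha over adult beta, per kilobase, was 1.82, 2.73, 2.74 and 1.45 at E12.5 and 0.515, 0.596, 0.655 and 0.690 at P0. Every E12.5 litter thus had more adult alpha than adult beta RNA, and every P0 litter less. On unshared windows the same ratio was 2.38, 4.07, 4.70 and 2.05 at E12.5 and 0.795, 0.842, 0.925 and 1.17 at P0, so that NPD30 then had slightly more adult alpha than beta. With the embryonic genes included, alpha-like over beta-like globin was 0.357 ± 0.0208 at E12.5 and 0.610 ± 0.0767 at P0 per kilobase, and 0.688 ± 0.0212 and 0.929 ± 0.166 on unshared windows. The stages did not overlap in either form.

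Within the adult pairs, Hbb-bt took 30.0%, 39.4%, 41.5% and 28.9% of the adult beta reads at E12.5 and 16.0%, 19.3%, 12.3% and 14.4% at P0. Hbb-bt therefore had a higher share in every E12.5 litter than in any P0 litter. Hba-a2 took 0.0123%, 15.5%, 34.4% and 7.88% of the adult alpha reads at E12.5 and 16.3%, 6.59%, 5.62% and 27.8% at P0. That share varied widely within both stages and did not separate them. Both shares rest on reads that fell in the unshared part of each gene.

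**Figure D3:**
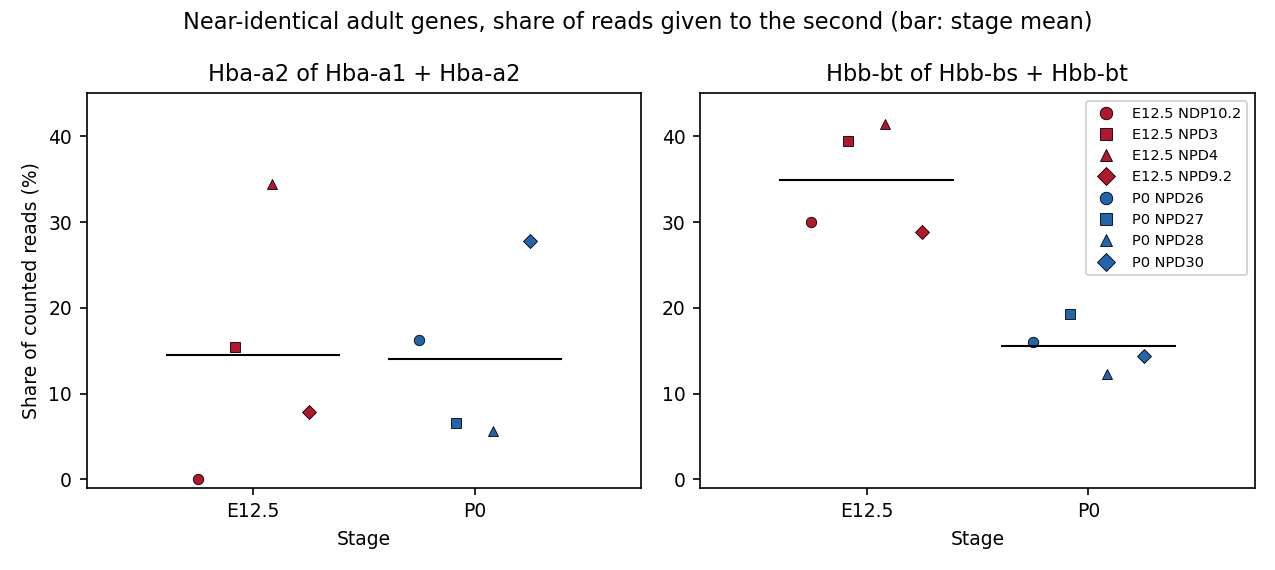
Share of the reads of each near-identical adult pair that was counted on Hba-a2 (left) and Hbb-bt (right), in percent, per litter, with bars at the stage means. Hbb-bt runs from 28.9% to 41.5% at E12.5 and from 12.3% to 19.3% at P0, whereas the Hba-a2 shares overlap.

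Alas2 and Klf1 were also set against the globin signal of their own litter. Alas2 had 1.89, 2.34, 2.60 and 2.74 reads per 1000 globin reads at E12.5 and 22.6, 15.9, 15.9 and 24.8 at P0. Klf1 had 0.276, 0.540, 0.520 and 0.340 reads per 1000 globin reads at E12.5 and 19.1, 19.4, 90.7 and 36.2 at P0. Both were thus higher relative to globin in every P0 litter, Klf1 by the wider margin. Alas2 over Klf1, per kilobase, was 4.37, 2.75, 3.18 and 5.13 at E12.5 and 0.755, 0.522, 0.112 and 0.435 at P0. These ratios are descriptions of the libraries.

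The summed reads of 15 genes of the red cell membrane and its skeleton served as another scale. Their sum was 690, 414, 562 and 1219 CPM at E12.5 and 256, 548, 557 and 528 CPM at P0, so that the stages overlapped. Per 1000 globin reads it was 27.8, 40.9, 53.7 and 24.8 at E12.5 and 443, 457, 1639 and 713 at P0. Per 1000 reads of adult globin alone it was 79.5, 208, 295 and 74.2 at E12.5 and 447, 460, 1649 and 717 at P0. In these litters the globin RNA differed more between the stages than the membrane genes did. The globins were chosen with this contrast known, so the difference only describes them. Several of these genes are also used outside red cells, among them Epb41 and Dmtn.

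**Figure D4:**
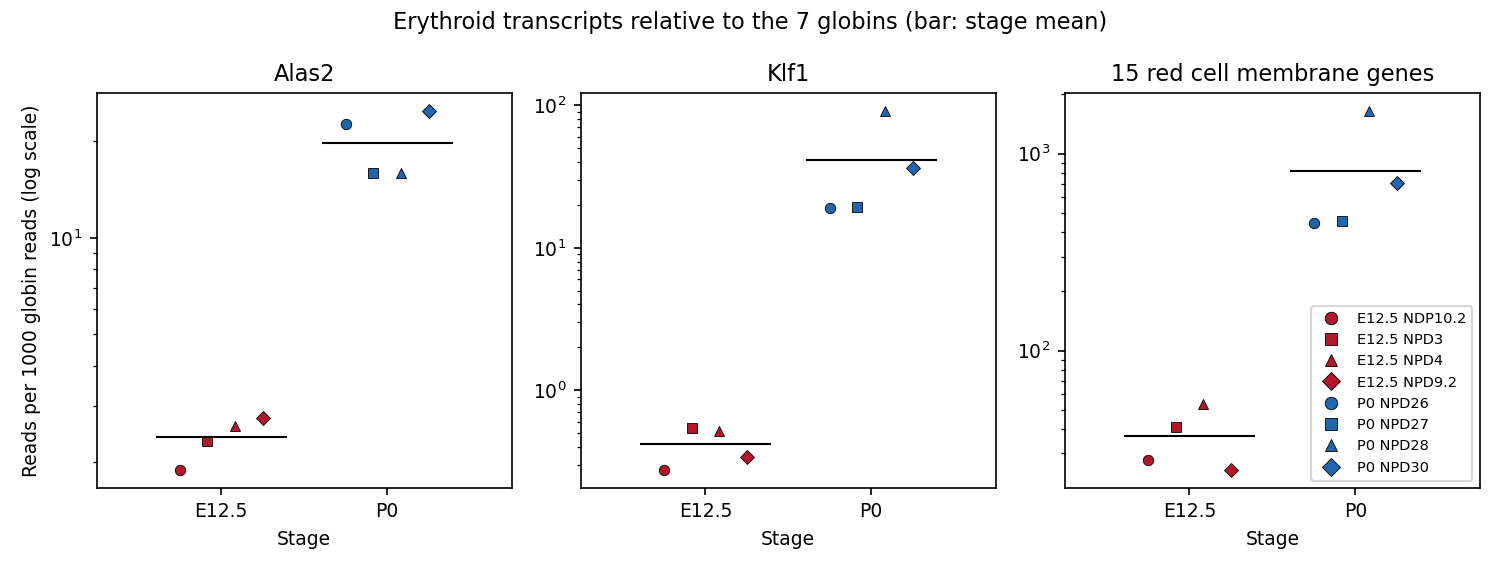
Reads of Alas2, Klf1 and the 15 red cell membrane genes per 1000 reads of the 7 globins in each litter, on log axes, with bars at the stage means. All P0 litters lie above all E12.5 litters in each panel. Most of the globin reads at E12.5 were embryonic, from genes chosen with their fall known.

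A further 70 genes in 9 lists were tested in the fit over all genes, namely the rest of the erythroid program and 3 globins of other cells (Mb, Cygb and Ngb). Of the 64 with enough reads, 12 were higher and 6 lower at P0, and 46 did not pass an adjusted p of 0.05 (edgeR's quasi-likelihood test, Benjamini-Hochberg adjustment). That is 28.1% of the listed genes against 27.9% of all genes tested, of which 16.0% were higher and 12.0% lower. The median log2 fold change was 0.41, against 0.04 over all genes tested. Without the globins in those lists, 15 of 61 tested genes passed, or 24.6%. The share relative to all genes depended on the setting, from 15.6% against 24.4% with NDP10.2 left out to 33.8% against 15.2% with no filter on low counts. Of the 18, 10 kept their call in all 8 fits that left out 1 litter, Car2 lost it in 1, and the other seven (Dmtn, Cygb, Ldb1, Alas1, Cpox, Tmem14c and Gfi1b) lost it in 5 to 7. With NDP10.2 left out 10 genes passed (15.6%, against 24.4% of all genes tested). The number was 12 (18.5% against 23.0%) with NPD27 left out. It was 11 (17.2% against 15.2%) with NDP10.2 and NPD9.2 left out.

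Of 4 other genes of the globin clusters, 2 had enough reads to be tested. Both were lower at P0, as were 12.0% of all genes tested. Hbb-bh0, annotated between Hbb-y and Hbb-bh1, measured 25.2, 8.0, 5.08 and 49.2 CPM at E12.5 and 0, 0.144, 0 and 0 CPM at P0. It held 390 reads at E12.5 and 1 at P0, a ratio of 528 with a 95% counting interval of 94.3 to 20919, and its adjusted p was 0.000562 (edgeR). Hbq1b, a theta-like gene of the alpha cluster, measured 6.13, 3.32, 2.66 and 4.43 CPM at E12.5 and 0, 0.721, 0.471 and 0.152 CPM at P0, a log2 difference of -3.50 (standard error 0.76, edgeR adjusted p = 0.00614). The call of Hbq1b was lost with NDP10.2 and NPD9.2 left out (edgeR adjusted p = 0.0680). Hbb-bh2 and Hbq1a had too few reads to be tested, with at most 0.585 and 0.708 CPM in any litter.

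Among globins that other cells use, Cygb (cytoglobin, found in fibroblast-like cells) rose from 4.30 ± 2.26 to 12.7 ± 6.62 CPM, and the log2 fold change was 1.57 (standard error 0.49, edgeR adjusted p = 0.0336). Mb (myoglobin) and Ngb (neuroglobin) were not tested for want of reads, and stayed at or under 3.54 and 3.07 CPM.

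Of 9 erythroid transcription factors and cofactors, 2 rose and 1 fell, with a median log2 fold change of 0.69. The share called was 33.3%, against 27.9% of all genes tested. Lmo2, the bridging protein of the Gata1 and Tal1 complex, measured 10.1, 7.61, 9.43 and 15.7 CPM at E12.5 and 93.3, 103, 57.0 and 21.5 CPM at P0, and rose by 2.68 on the log2 scale (standard error 0.46, edgeR adjusted p = 0.00215). Gfi1b, a repressor needed in red cell and platelet precursors, rose by 1.94 (standard error 0.58, edgeR adjusted p = 0.0288). Ldb1, a widely expressed cofactor that joins enhancers to promoters, fell by 0.67 on the log2 scale (standard error 0.22, edgeR adjusted p = 0.0413). Nfe2, a factor of red cells, platelets and myeloid cells, had a log2 fold change of 1.85 (standard error 0.70) with an adjusted p of 0.0760 in edgeR, and its highest litter was NPD28.

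Of 7 regulators linked to globin switching, 1 rose (14.3%, against 27.9% of all genes tested called), with a list median of -0.09. Myb, a factor of blood progenitors, measured 0.708, 3.90, 5.92 and 1.72 CPM at E12.5 and 30.8, 25.2, 130 and 19.3 CPM at P0, and its log2 fold change was 3.99 (standard error 0.78, edgeR adjusted p = 0.00443). Bcl11a and Zbtb7a, repressors of embryonic and fetal globin genes, had log2 fold changes of -0.91 (standard error 0.39, edgeR adjusted p = 0.112) and 1.03 (standard error 0.37, edgeR adjusted p = 0.0627). Nr2c1, a nuclear receptor that binds embryonic globin promoters, had -0.35 (standard error 0.26, edgeR adjusted p = 0.351). Zbtb7a passed with other settings, at an adjusted p of 0.0409 with DESeq2, 0.0403 with limma-voom, and in edgeR 0.00858 with no filter and 0.0190 with NDP10.2 and NPD9.2 left out. Bcl11a passed with no filter, at an edgeR adjusted p of 0.0497, and with NPD28 left out, at 0.0178.

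White blood cell genes moved with the same contrast. For the counts that follow, 16.0% of all genes tested were higher at P0 and 12.0% lower (edgeR, adjusted p under 0.05). The 9 neutrophil genes summed to 4.25 to 18.0 CPM at E12.5 and 806, 867, 7335 and 1009 CPM in NPD26, NPD27, NPD28 and NPD30, with 8 of 8 tested higher at P0 and Elane at 0 in every E12.5 litter. The 8 general leukocyte genes summed to 53.7 to 107 CPM at E12.5 and 2811, 3350, 3367 and 281 CPM at P0, all 8 higher. The 6 macrophage genes summed to 42.0 to 91.2 CPM at E12.5 and 3710, 3984, 1251 and 48.2 CPM at P0, with 5 of 5 tested higher. The 8 platelet genes summed to 34.1 to 117 CPM at E12.5 and 68.7 to 395 CPM at P0. Of these 8, 2 were higher (25.0%, against 16.0% of all genes tested). Lmo2 was lowest at P0 in NPD30, the litter lowest in leukocyte genes, and Myb, Nfe2 and Klf1 were highest in NPD28, the litter highest in neutrophil genes. The part of white cells in Lmo2, Myb, Nfe2, Gfi1b and Klf1 was not tested. The 6 endothelial genes summed to 71.6 to 150 CPM at E12.5 and 23.2 to 110 CPM at P0. Among them 1 was lower (16.7%, against 12.0% of all genes tested).

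Of 11 genes of heme synthesis, 3 rose and none fell, with a median log2 fold change of 0.19. The share called was 27.3%, near the 27.9% of all genes tested. These calls depended on single litters. Dropping the 8 litters in turn cost Alas1, Cpox and Tmem14c their calls 6 times each. At most 2 heme genes then passed, and 0 passed when NDP10.2, NPD3 or NPD27 was dropped. Alas1, the form of the first enzyme used outside red cells, measured 17.2, 28.7, 29.0 and 29.5 CPM at E12.5 and 58.8, 67.2, 79.8 and 25.6 CPM at P0, a log2 difference of 1.15 (standard error 0.34, edgeR adjusted p = 0.0279). Its mean thus went the opposite way to that of Alas2, although NPD30 lay within the E12.5 range of Alas1. Cpox, a late enzyme of the pathway, had a log2 fold change of 0.95 (standard error 0.30, edgeR adjusted p = 0.0362), and Tmem14c, a mitochondrial protein needed for heme synthesis, one of 0.75 (standard error 0.25, edgeR adjusted p = 0.0456). Slc25a38, the mitochondrial glycine carrier, had 0.69 (standard error 0.25, edgeR adjusted p = 0.0584).

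Of 7 genes of iron uptake and storage, 2 rose and none fell, with a median of 1.18. Their share of 28.6% was near the 27.9% of all genes tested. Steap3, the reductase that readies endosomal iron for export, measured 8.73, 4.68, 3.87 and 10.8 CPM at E12.5 and 28.8, 29.7, 40.0 and 27.4 CPM at P0, a log2 difference of 2.18 (standard error 0.36, edgeR adjusted p = 0.00162). Tfr2, a transferrin receptor of red cell precursors and liver, had a log2 fold change of 2.23 (standard error 0.49, edgeR adjusted p = 0.00659). The transporter Slc11a2 and the ferritin heavy chain Fth1 did not pass, with 0.98 (edgeR adjusted p = 0.0738) and 1.19 (edgeR adjusted p = 0.0750).

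Of 14 red cell membrane genes tested, 1 rose and 1 fell (14.3%, against 27.9% of all genes tested), with a median of 0.27. Dmtn, an actin-bundling protein of the membrane skeleton, had a log2 fold change of 1.27 (standard error 0.43, edgeR adjusted p = 0.0462). Epb41, protein 4.1 of the skeleton, fell by 1.45 on the log2 scale (standard error 0.35, edgeR adjusted p = 0.00967). Slc4a1, the anion exchanger band 3, measured 258, 121, 121 and 528 CPM at E12.5 and 36.5, 116, 76.0 and 118 CPM at P0, a log2 difference of -1.57 (standard error 0.53) and an adjusted p of 0.0511 in edgeR. Rhag, the Rh-associated glycoprotein, had 0.91 (edgeR adjusted p = 0.144).

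Among the listed genes outside the globin clusters, Car1 of the red cell cytosol had the largest log2 fold change. Car1, the carbonic anhydrase abundant in mature red cells, measured 1.42, 1.17, 0.967 and 0 CPM at E12.5 and 38.1, 58.5, 51.9 and 104 CPM at P0, a log2 difference of 6.09 (standard error 0.57, edgeR adjusted p = 0.000120). Of the 7 genes tested, 2 rose and 2 fell (57.1%, against 27.9% of all genes tested), with a median of 1.03. Car2, a carbonic anhydrase of many tissues, had 1.30 (standard error 0.34, edgeR adjusted p = 0.0145). Bpgm, which makes the bisphosphoglycerate that lowers the oxygen affinity of hemoglobin, fell by 1.42 on the log2 scale (standard error 0.35, edgeR adjusted p = 0.0112), and Prdx2, an abundant red cell peroxidase, by 1.22 (standard error 0.28, edgeR adjusted p = 0.00813). The stage means of Car1 and of the globins thus went in opposite directions. The globins were chosen with this contrast known, and Hbb-bs and Hba-a2 overlapped between the stages. With NDP10.2 and NPD9.2 left out, the log2 fold change of Hbb-bs was 0.22.

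None of 6 genes of erythroid maturation passed in edgeR, with a median of 0.77, whereas 27.9% of all genes tested passed. At an unadjusted p of 0.05, 2 passed in edgeR, and after adjustment 0 passed in DESeq2 and 1 (Epor) in limma-voom. Hemgn, a Gata1 target of red cell precursors, had a log2 fold change of 1.17 (edgeR adjusted p = 0.0984), and Epor, the erythropoietin receptor, 1.56 (edgeR adjusted p = 0.122). Trim10 had -1.03 (edgeR adjusted p = 0.173) and Trim58, a ubiquitin ligase of late red cells, 1.14 (edgeR adjusted p = 0.331).

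**Figure D5:**
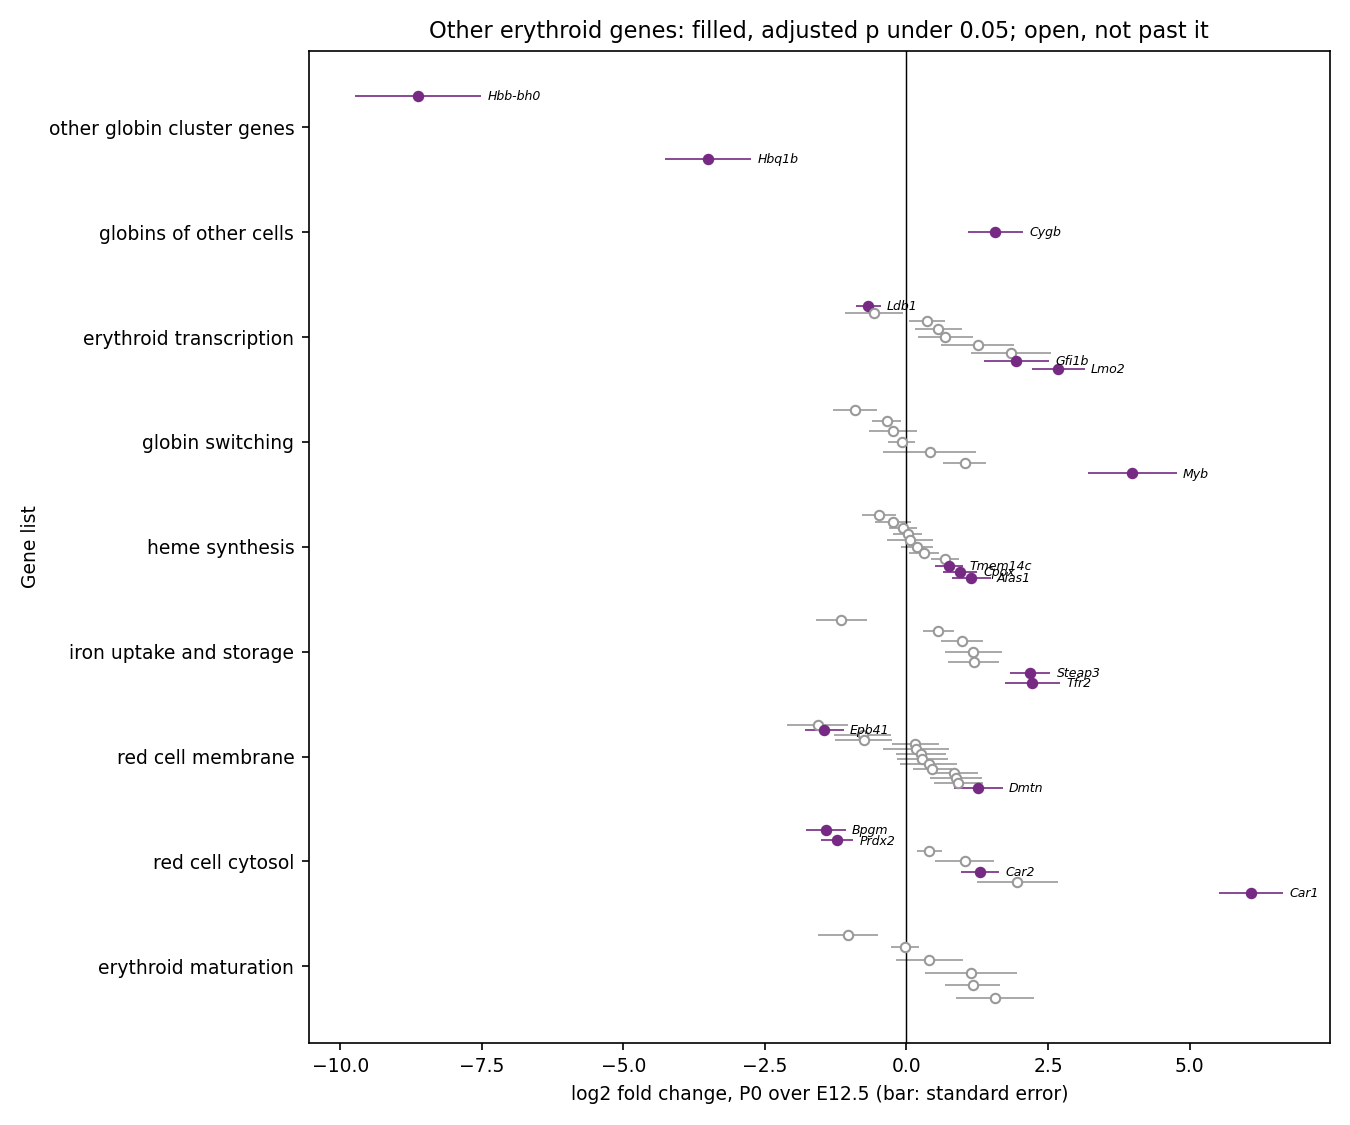
Log2 fold change of P0 over E12.5 with its standard error for each tested gene of the lists outside the 9, grouped by list, with genes past an edgeR adjusted p of 0.05 filled and named. Hbb-bh0 (-8.62), Car1 (6.09) and Myb (3.99) lie farthest from 0, followed by Hbq1b (-3.50).

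The genes most like Hbb-y over the 8 litters were Tmem132c, Mn1, Mdk, Mmp11, Edn3, Amot, Dchs1 and Mest, with Pearson's r of log2 CPM from 0.991 to 0.997 among 12679 candidates. Among the 9 genes, Hba-x had an r of 0.998 and Hbb-bh1 of 0.991 with Hbb-y, Hbb-bs 0.61, Hba-a2 0.29 and Klf1 -0.73. The gap between the stages dominates these values. With the stage means subtracted, the genes most like the summed adult globins were Mcrip2, Arhgap6, Tubb6, Srm, Plekha4, Gm6085, Tnnt3 and Tspan9, with r from 0.952 to 0.993. On that scale Hbb-y had 0.93, Alas2 0.92, Hba-x 0.86, Klf1 0.56, Hbb-bh1 0.42 and Hba-a2 -0.12. Within stages, then, Alas2 tracked the adult globins closely while Hbb-bh1 did not. Hba-a2 is itself 1 of the summed genes. How far its r rests on NDP10.2, where it had 3 reads, was not tested. These are descriptions over 8 litters that share depth and tissue makeup.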

How the data were processed

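RNA from 8 pooled litters was sequenced as single-end reads. Per the study's methods and the submitters' processing notes, the authors aligned the reads to GRCm38.p3 with STAR 2.4.0j, annotated features from Gencode M4, and deposited 1 table of raw counts per sample, made with HTSeq. The tallies of unassigned reads at the end of each table were left out of library sizes, and no column was left unused. Positions and transcripts came from Gencode M21 on the same build, and 42462 of 43346 identifiers were matched to a symbol. Ahsp had no matching row and was not analysed here.

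Counts were tested in R 4.3.3 with edgeR 4.0.16 (TMM normalization, filterByExpr at its minimum count of 10 and 15 in total, robust quasi-likelihood F-test, Benjamini-Hochberg adjustment over 15467 genes). CPM uses TMM library sizes, and log2 CPM for correlations a prior count of 2. The standard error is the log2 fold change divided by the square root of F. The method was tested on simulated data. DESeq2 1.42.0 and limma 3.58.1 gave alternatives.

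The 9 genes and all lists were chosen with earlier results of these data known. Named were the 9, all other globins, the 4 genes of lowest adjusted p in each other list, and the 8 genes most like each of 2 profiles. Marker genes, and litters left out together with NPD30, were added. Motif search covered both strands. Litters are separate pools of animals.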

Additional observations from a re-analysis of the deposited data

Results flagged for a closer look

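In 10 of 128 sets of 4 litters, 1 litter lay far from the other three, by a rule (Dixon's 95% critical value) that chance meets in about 1 in 20 sets. At E12.5, NPD9.2 was the high litter for Hba-x, at 4970 CPM against 1857 to 2345, and for Klf1, at 16.7 CPM against 5.44 to 6.84. NDP10.2 was the low litter for Alas1, at 17.2 CPM against 28.7 to 29.5. NPD3 alone had reads of Hbb-bh2, at 0.585 CPM. At P0, NPD28 was the high litter for Nfe2, at 81.0 CPM against 11.2 to 17.2, and for Myb, at 130 CPM against 19.3 to 30.8, and the low litter for Bpgm, at 5.77 CPM against 10.8 to 11.6. NPD26 was the high litter for Ngb, at 2.36 CPM against 0.824 to 1.01. NPD27 alone had reads of Hbb-bh0 and of Hbq1a, at 0.144 CPM each, a single read.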

How the results depend on the processing

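Leaving out the E12.5 litters NDP10.2 and NPD9.2 brought the genes called over all genes from 4321 to 2581, with fewer samples in the fit. The listed genes called went from 18 of 64 to 11 of 64 (17.2%, against 15.2% of all genes tested). Without these litters the log2 fold change of Hbb-bs turned from -2.32 to 0.22, and to 0.22 also with NPD30 left out (chosen after seeing the data). Fits without 1 litter each called 3612 to 4529 genes over all (lowest without NPD26) and 10 to 19 listed genes (lowest without NDP10.2, 10 of 64 or 15.6% against 24.4% of all). DESeq2's Wald test called 25 of 64 listed genes (39.1% against 33.1% of all), and no filter 23 of 68 (33.8% against 15.2%). Limma-voom called 18 (28.1% against 26.3%) and DESeq2 size factors 16 (25.0% against 27.8%). With globin and mitochondrial genes left out 18 passed (28.1% against 27.9%). Counting on unshared windows, likewise chosen after seeing the data, moved the embryonic share of beta-like globin from 89.0% to 80.3% at E12.5 and from 0.985% to 0.502% at P0, and of alpha-like globin from 39.9% to 17.9% and from 0.311% to 0.0987%. With each litter left out in turn, those shares per kilobase were 87.3% to 90.7%, 0.882% to 1.06%, 35.8% to 44.5% and 0.283% to 0.342%, and globin was 1.51% to 2.68% of reads at E12.5 and 0.0547% to 0.0840% at P0. The remaining causes were not tested. No paired analysis was possible because the E12.5 and P0 samples were pools from different litters. At P0 depth limits Hbb-bh1, Hba-x and Hbb-bh0.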
